A study of Homo sapiens with 6 samples.

Results

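Ferroportin and 9 other iron handling genes were followed in SK-BR-3 cells, an established breast cancer line that overexpresses HER2, after transfection with an siRNA against GRB2. The 10 genes are SLC40A1 (ferroportin), TFRC, SLC11A2, SLC39A14, FTH1, FTL, NCOA4, HMOX1, ACO1 and IREB2, and all 10 were found by symbol among the 30327 genes of the count table. They were chosen by a measured value, the higher SLC40A1 level of the treated cells, so the values of SLC40A1 in that contrast are given as a description and without a test. The other 9 genes were named for their function, but with earlier results of these data known.

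RNA captured on mRNA beads gave 6 libraries, 3 from cells that received a nontargeting siRNA (si_NC) and 3 from cells that received the siRNA against GRB2 (si_GRB2). Both groups were the same line, transfected with the same reagent, and nothing in the labels says whether the 3 samples of a group were separate cultures, so the p-values measure the spread between these samples, which may be technical. The descriptions name the treated group si_GRB2, while its titles and genotype field name GRB2 overexpression. GRB2 had a normalised read count, scaled to library size (CPM), of 123.9 to 129.5 in si_NC and 27.8 to 29.6 CPM in si_GRB2, which goes with the siRNA label and against the other. For GRB2, 1 siRNA sequence is printed in the methods while a supplement names samples of several, and which of them the sequenced cells received is not given in the sources used here, so the loss of GRB2 and other effects of an siRNA cannot be told apart. Depth ran from 24810378 to 28532480 reads on genes. The 6 markers of SK-BR-3 identity (ERBB2, GRB7, EPCAM and the keratins KRT8, KRT18 and KRT19) summed to between 17383.7 and 17771.2 CPM in si_NC and between 14535.8 and 15125.5 CPM in si_GRB2. The members of that list went in opposite directions, with ERBB2 (HER2) higher in every si_GRB2 library (log2 fold change 0.24) and the other 5 lower in every one, from −0.20 for KRT19 to −0.55 for KRT18 and EPCAM. Of the blood and macrophage markers, 1 of the 6 in the table reached a mean of 1 CPM, CSF1R, and that list summed to 62.8 to 64.1 CPM in si_NC and 53.1 to 56.6 CPM in si_GRB2. Stromal markers summed to between 5.40 and 7.59 CPM over all libraries, with 2 of 6 at a mean of 1 CPM or more. No marker of these lists had 0 reads in every library. The part of these markers in the results below was not tested.

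Cells take up iron mainly as transferrin bound to transferrin receptor 1, release it from endosomes, and either use it, store it inside ferritin shells or export it through ferroportin, the exporter known in mammals. The balance is set largely after transcription, by iron regulatory proteins (IRPs) that bind iron-responsive elements (IREs), short hairpins in the untranslated regions of the messenger RNA. An IRP on an IRE of the 5′ untranslated region (UTR) holds back translation, as in ferritin and ferroportin, whereas an IRP on the IREs of the 3′ UTR of TFRC slows decay of the mRNA. Ferroportin and the ferritin chains are also induced at transcription by the oxidative stress factor NRF2 and repressed by the heme sensor BACH1.

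The IREs are printed here because they are the sequence feature that links the exporter, the receptor and the iron store. GENCODE 44 holds 1 reference (MANE Select) transcript for each of the 10 genes, and these were searched for a canonical hairpin, that is a bulged C, then 5 bases, the loop CAGTGN, and 5 further bases that pair with the first 5 (G with T counted as a pair). Of the 10 genes, 4 held such a hairpin, and over the whole set of 19061 transcripts 256 genes (1.34%) did. Each line gives 30 bases written as DNA, from 5′ to 3′ on the strand of the gene, with the bulged C and the loop in capitals.
SLC40A1: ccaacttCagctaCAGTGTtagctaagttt
FTH1: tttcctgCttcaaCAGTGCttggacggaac
FTL: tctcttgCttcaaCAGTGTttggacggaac
TFRC, hairpin 1: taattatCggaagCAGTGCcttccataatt
TFRC, hairpin 2: acattatCgggagCAGTGTcttccataatg
TFRC, hairpin 3: tctgtatCggagaCAGTGAtctccatatgt
TFRC, hairpin 4: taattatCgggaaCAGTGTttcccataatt

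The hairpin of SLC40A1 covers bases 97 to 126 of a 5′ UTR of 326 bases (chr2:189580661-189580690, minus strand, GRCh38). That of FTH1 covers bases 32 to 61 of a 5′ UTR of 209 bases (chr11:61967574-61967603, minus strand), and that of FTL bases 26 to 55 of a 5′ UTR of 199 bases (chr19:48965334-48965363, plus strand). The 4 hairpins of TFRC lie within its 3′ UTR of 2661 bases, the first at chr3:196050979-196051008 and the last at chr3:196050463-196050492 (minus strand). The same letters were not found in the reference transcripts of the other 6 genes, SLC11A2 among them. This says nothing about hairpins of another form or in other transcripts of these genes. A match is a description of the sequence, not evidence of binding in these cells.

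SLC40A1 (ENSG00000138449.11), the exporter, lies at chr2:189560590-189583758 (GRCh38, minus strand). Its values with the nontargeting siRNA were 30.8, 28.2 and 31.3 CPM, and with the GRB2 siRNA 50.6, 49.2 and 49.9 CPM. All 3 si_GRB2 libraries lay above all 3 si_NC libraries, and the si_GRB2 values were the closer to each other. The means were 30.1 ± 1.67 CPM and 49.9 ± 0.694 CPM (SD, n = 3 each), a level 1.65-fold higher in si_GRB2. The log2 fold change was 0.73 with a standard error of 0.05, and it ran from 0.68 to 0.78 under the alternative settings. Among all 15801 genes with enough reads to test, 168 (1.06%) had a larger positive log2 fold change. In bulk RNA, more cells with the transcript and more transcript per cell cannot be told apart. Its mean differed by more than 1.5-fold between groups, and TFRC came next of the 10 at 1.43-fold. A differentially expressed gene (DEG) was defined by a change of more than 1.5-fold in either direction together with an adjusted p under 0.01 in edgeR, which 2.52% of all tested genes reached, 0.829% higher and 1.69% lower. SLC40A1 is not put to that test, because its level in this contrast chose the set.

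**Figure D1:**
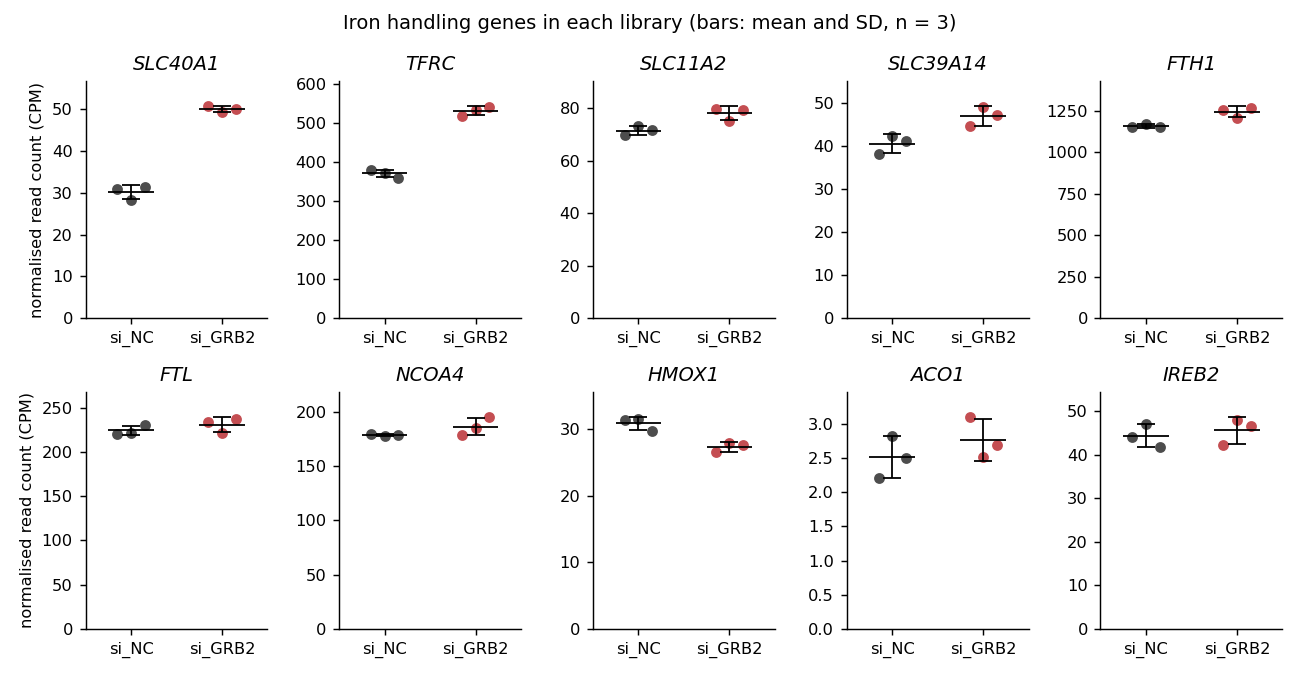
Normalised read count (CPM, y axis from 0) of each iron handling gene in the 3 si_NC libraries (grey) and the 3 si_GRB2 libraries (red), with the mean and SD as bars. SLC40A1 and TFRC show the widest gaps relative to their level, at 30.1 against 49.9 CPM and 371 against 531.5 CPM, whereas FTL, NCOA4, ACO1 and IREB2 overlap between groups.

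Of the 9 genes other than SLC40A1, 4 were higher in si_GRB2 (TFRC, SLC39A14, SLC11A2, FTH1), 1 was lower (HMOX1) and 4 did not pass (FTL, NCOA4, ACO1, IREB2), at an adjusted p under 0.05 in the quasi-likelihood test of edgeR. Over all 15801 genes, 30.6% passed that test, 15.2% higher and 15.5% lower, and nothing is read from the members' count because the contrast was used to assemble them. The median log2 fold change of the 9 was 0.10, against 0.0019 for all tested genes. The groups did not overlap for the 5 genes that passed, as for 42.3% of all tested genes. When libraries were scaled by their total reads alone, a setting added after seeing the data, 6 of the 9 were higher and 0 lower, and the split over all genes went from 2396 higher and 2442 lower to 3447 higher and 1733 lower. With limma on log2(FPKM + 1) it was 834 higher and 566 lower.

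The 3 import genes were all higher in si_GRB2, and TFRC changed the most. TFRC (ENSG00000072274.13, chromosome 3 from 196012511 to 196082153), the receptor that brings in transferrin, had 380.1, 372.6 and 360.4 CPM in si_NC and 519.3, 534.4 and 540.9 CPM in si_GRB2. The lowest si_GRB2 library was thus far above the highest si_NC library. The means were 371 ± 9.96 CPM and 531.5 ± 11.1 CPM (SD, n = 3 each), a rise of 43.3%. The log2 fold change was 0.52 ± 0.03 (SE; edgeR gave an adjusted p of 1.04e-09), and 3.27% of tested genes had a larger positive value. Its 95% interval, 0.46 to 0.58, ended at the fold-change limit of a DEG (0.58 on the log2 scale), and TFRC was not a DEG.

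SLC39A14 (ZIP14, chromosome 8 from 22367278 to 22434129) takes up iron that is not bound to transferrin, as well as zinc and manganese. It had 38.2, 42.5 and 41.2 CPM in si_NC and 44.7, 49.1 and 47.4 CPM in si_GRB2, so the groups were separate by a narrow margin. The log2 fold change was 0.21 ± 0.05 (SE; edgeR gave an adjusted p of 0.00346). SLC11A2 (DMT1, chromosome 12 from 50979401 to 51028566) carries ferrous iron out of the endosome. Its values were 69.8, 73.1 and 71.7 CPM in si_NC and 79.8, 75.1 and 79.4 CPM in si_GRB2. The si_GRB2 libraries were all higher, replicate 2 only slightly. Its log2 fold change was 0.13 ± 0.04 (SE; edgeR gave an adjusted p of 0.0182). That call was lost in edgeR without si_NC replicate 1 (adjusted p = 0.101), without si_GRB2 replicate 1 (adjusted p = 0.0681) and without si_GRB2 replicate 3 (adjusted p = 0.0657). Limma on log2(FPKM + 1) lost it too (adjusted p = 0.124). The adjusted p over all its edgeR, DESeq2 and limma alternatives ran from 0.00162 to 0.124.

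**Figure D2:**
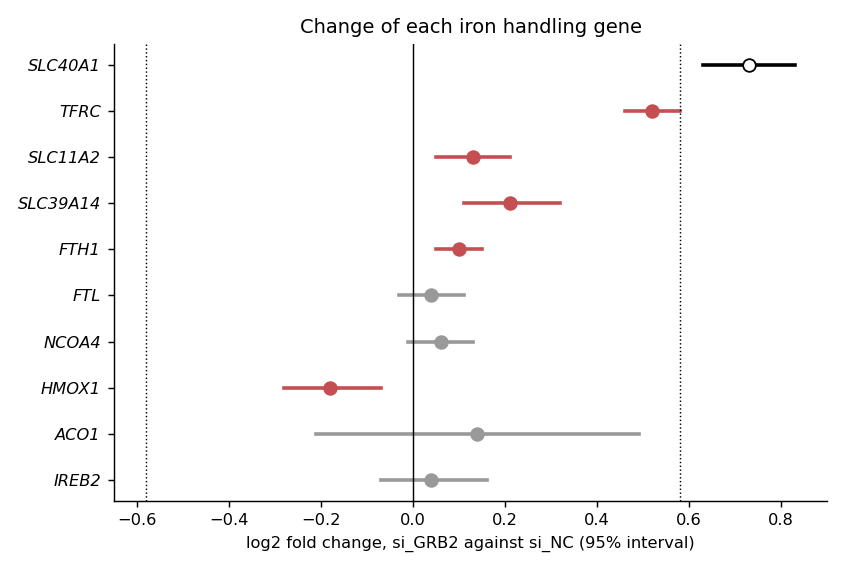
Log2 fold change of si_GRB2 against si_NC (x axis) with its 95% interval for each iron handling gene, in red where the adjusted p was under 0.05 and grey otherwise, with SLC40A1 in black. Dotted lines mark the fold-change limit of a DEG, and the open circle marks SLC40A1, which is shown as a description with no test; its value of 0.73 is followed by 0.52 for TFRC, and HMOX1 is the one gene below 0 at −0.18.

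The mRNAs of the iron store changed little, while ferritin protein and stored iron were not measured. FTH1 (chromosome 11 from 61959718 to 61967634), the ferritin heavy chain that oxidises iron as it enters the shell, had 1153.6, 1172.7 and 1149.9 CPM in si_NC and 1255.5, 1205.1 and 1267.1 CPM in si_GRB2. The groups did not overlap, although the gap was a small part of the level. The log2 fold change was 0.10 ± 0.02 (SE; edgeR gave an adjusted p of 0.00381), a rise of 7.23%. The calls of FTH1 and SLC39A14 were both lost with limma on log2(FPKM + 1), at adjusted p-values of 0.137 and 0.159, while over all alternatives these ran from 6.56e-05 to 0.169 for FTH1 and from 0.000157 to 0.159 for SLC39A14. FTL (chromosome 19 from 48965309 to 48966879), the light chain that helps iron to mineralise, had 220.5 to 230.6 CPM in si_NC and 221.4 to 237.7 CPM in si_GRB2, and these ranges overlapped. Its log2 fold change was 0.04 with a 95% interval from −0.03 to 0.11 (edgeR gave an adjusted p of 0.373). NCOA4 (chromosome 10 from 46005088 to 46030623), the receptor that delivers ferritin to lysosomes, had 178.3 to 180.1 CPM in si_NC and 179.1, 185.3 and 195.3 CPM in si_GRB2. Only the third si_GRB2 library stood well above the si_NC libraries, and the log2 fold change was 0.06 with a 95% interval from −0.01 to 0.13 (edgeR gave an adjusted p of 0.198).

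The count of FTH1 has a limit on the genome. BEST1, a chloride channel gene, overlaps FTH1 on the opposite strand and had 15.1% as many reads, and although the labels describe a library that keeps strand, whether the counting used it is not given in the sources used here. BEST1 varied between libraries, with 231.8, 180.9 and 113.2 CPM in si_NC and 233.9, 149.9 and 181.8 CPM in si_GRB2, a wider range than the FTH1 difference itself. With FTH1 and BEST1 added together, the values were 1385.4, 1353.6 and 1263.1 CPM in si_NC and 1489.4, 1355.0 and 1448.9 CPM in si_GRB2, and the groups overlapped (exact permutation test, two-sided p = 0.2, where 3 against 3 can reach 0.1 at the lowest). Ferritin also has many processed copies in the genome, and reads that fit more than 1 place were left out by the authors. The 16 FTH1 pseudogenes in the table held 0.303% as many reads as FTH1, and the 2 FTL pseudogenes held 3 reads in all libraries together.

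HMOX1 (chromosome 22 from 35380361 to 35394214), heme oxygenase 1, frees iron from heme and is a classic target of NRF2 and BACH1. It had 31.4, 31.5 and 29.8 CPM in si_NC and 26.6, 27.9 and 27.6 CPM in si_GRB2. It was the one gene of the 10 that was lower in all si_GRB2 libraries. It fell by 11.5%, a log2 fold change of −0.18 ± 0.05 (SE; edgeR gave an adjusted p of 0.0106). The call was lost with DESeq2 (adjusted p = 0.0545), with limma on log2(FPKM + 1) (adjusted p = 0.185) and with scaling by total reads (adjusted p = 0.0593), and the adjusted p ran from 0.00585 to 0.186 over its alternatives.

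The mRNAs of the regulators did not pass the test. IREB2 (IRP2, chromosome 15 from 78437431 to 78501453) is controlled mainly by degradation of its protein, which these data do not measure. It had 41.9 to 47.2 CPM in si_NC and 42.2 to 48.0 CPM in si_GRB2, with a log2 fold change of 0.04 and a 95% interval from −0.07 to 0.16 (edgeR gave an adjusted p of 0.623). ACO1 (IRP1, chromosome 9 from 32384603 to 32454769), which switches between an aconitase and an IRE binder, was the lowest of the 10. It had 62, 72 and 70 reads in si_NC and 78, 69 and 68 reads in si_GRB2. The log2 fold change was 0.14 with a 95% interval from −0.21 to 0.49 (edgeR gave an adjusted p of 0.587), so a change of the size seen for SLC39A14 was not detectable at this depth.

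Levels of different genes were compared in the deposited FPKM, which correct for length, so the order depends on the length used. All annotated exons of a gene can be longer together than its reference transcript. These lengths were 9888 and 4132 bases for SLC11A2, 4218 and 3330 for SLC40A1, and 2306 and 1554 for HMOX1. The order in si_NC was FTH1 (464.4 ± 15.6), FTL (206.9 ± 12.7), TFRC (38.2 ± 0.359), NCOA4 (36.1 ± 1.20), HMOX1 (10.8 ± 0.132), SLC11A2 (5.81 ± 0.286), SLC40A1 (5.74 ± 0.441), SLC39A14 (4.73 ± 0.367), IREB2 (3.30 ± 0.159) and ACO1 (0.27 ± 0.0361), each a mean FPKM with SD and n = 3. In si_NC, the FPKM of neighbours overlapped only for SLC11A2 and SLC40A1. In si_GRB2, SLC40A1 at 9.79 ± 0.148 FPKM overlapped with HMOX1 at 9.82 ± 0.511 FPKM and lay above SLC11A2 at 6.54 ± 0.157 FPKM (SD, n = 3 each), and no other neighbours overlapped. In the deposited FPKM, SLC40A1 thus moved from beside SLC11A2 to beside HMOX1, while the order of the other genes stayed the same. Neither the place of SLC40A1 nor the order of the other genes was examined by the length of the reference transcripts. Both statements therefore hold for the deposited FPKM alone.

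**Figure D3:**
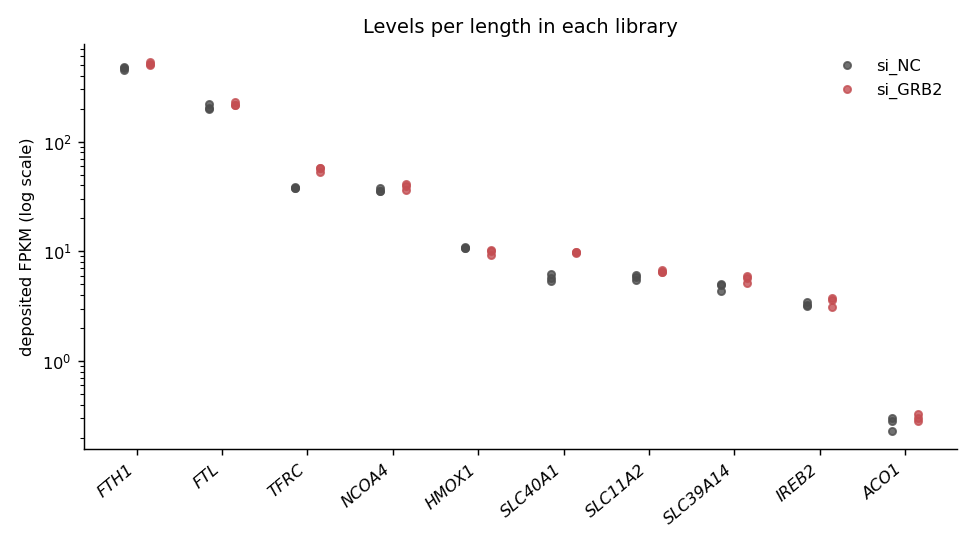
Deposited FPKM of the iron handling genes (log scale) in each si_NC library (grey) and each si_GRB2 library (red), ordered by the mean over all libraries. The ferritin chains stand highest, at 488.8 and 213.1 FPKM over all libraries, and ACO1 lowest at 0.287 FPKM.

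Ratios of 2 genes inside a library do not depend on how libraries are scaled, and these ratios were picked with the changes known. The ratio of TFRC to FTH1 in FPKM was 0.0847, 0.0817 and 0.0806 in si_NC and 0.106, 0.114 and 0.110 in si_GRB2. Receptor mRNA was higher against the heavy chain of the store in each of the si_GRB2 libraries, which restates the changes of both genes. It is given as a description only. The ratio of TFRC to SLC40A1 went the other way, at 6.66, 7.15 and 6.23 in si_NC and 5.55, 5.88 and 5.87 in si_GRB2, which is given without a test. The ratio of FTH1 to FTL was 2.25 ± 0.0711 in si_NC and 2.34 ± 0.0241 in si_GRB2 (SD, n = 3 each), with all si_GRB2 libraries higher but the nearest pair at 2.30 and 2.32.

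**Figure D4:**
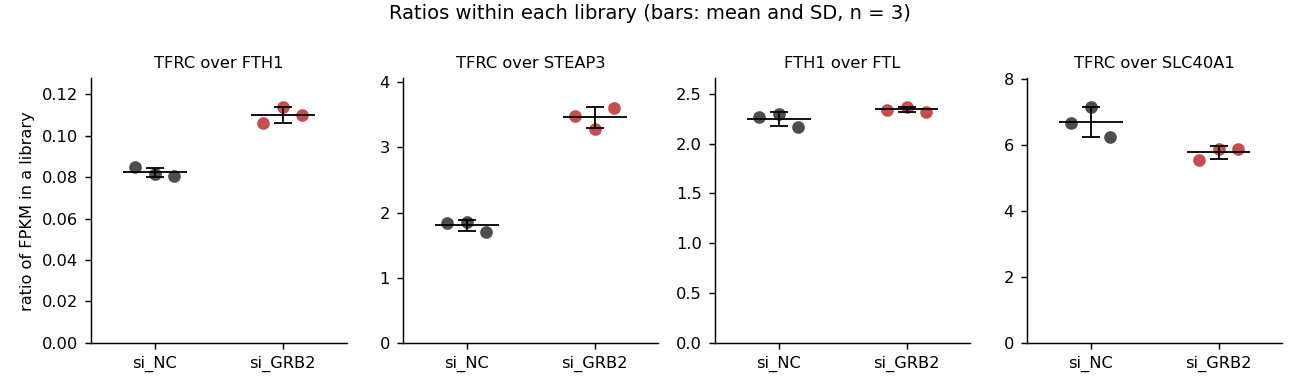
Ratios of deposited FPKM within each library (y axes from 0), with si_NC in grey, si_GRB2 in red, and the mean and SD as bars. TFRC against FTH1 and TFRC against STEAP3 are higher in the 3 si_GRB2 libraries, with TFRC over STEAP3 at 1.80 against 3.46, whereas TFRC against SLC40A1 is lower.

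Beyond the 10, 107 genes of iron metabolism in 6 lists were examined (NFS1 stands in 2 lists), of which 103 were in the table and 92 had enough reads. Of the 92, 16 were higher and 17 lower in si_GRB2 and 59 did not pass, or 35.9% called against 30.6% of all tested genes. Their median log2 fold change was −0.0096. With scaling by total reads, 24 were higher and 15 lower. Below 30.6% were the lists of uptake and export (23.1% called), mitochondrial iron and iron-sulfur clusters (20.7%) and ferroptosis (3 of 12). Above it were storage, chaperones and sensing (46.2%), heme synthesis and breakdown (57.1%) and NRF2 targets (58.3%). Over all tested genes, 15.2% were higher and 15.5% lower. Whether any list differs from all genes was not tested.

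In the list of uptake and export, 0 of 13 tested genes were higher and 3 were lower, while 10 did not pass. STEAP4, a metalloreductase of the plasma membrane and endosomes, fell from 29.7 ± 1.16 CPM to 17.5 ± 0.916 CPM (SD, n = 3 each), a log2 fold change of −0.76 (edgeR gave an adjusted p of 4.94e-08), and was the one DEG of this list. STEAP3, the endosomal reductase that works with TFRC and DMT1, fell from 20.7, 20.41 and 22.56 FPKM in si_NC to 15.32, 17.62 and 16.07 FPKM in si_GRB2, and in the counts it had a log2 fold change of −0.42 (edgeR gave an adjusted p of 5.09e-07). The reductase was thus lower in all 3 libraries in which its partners in the endosome were higher, and the ratio of TFRC to STEAP3 in FPKM was 1.84, 1.86 and 1.71 in si_NC and 3.49, 3.29 and 3.61 in si_GRB2. LCN2, which binds iron-carrying siderophores, had a log2 fold change of −0.41 (edgeR gave an adjusted p of 3.89e-05).

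In the list of storage, chaperones and sensing, 2 of 13 were higher, 4 were lower and 7 did not pass. The chaperones that hand iron to ferritin were both lower in CPM, with log2 fold changes of −0.19 for PCBP1 and −0.15 for PCBP2. PCBP1 went from 431.9 ± 5.42 CPM to 377.8 ± 4.66 CPM (SD, n = 3 each). PCBP2 went from 233.2 ± 5.19 CPM to 210.6 ± 3.04 CPM (SD, n = 3 each). In FPKM, PCBP1 was lower in every si_GRB2 library, while PCBP2 overlapped between groups. FBXL5, the iron sensor of the ubiquitin ligase that degrades IRP2, fell from 22.3 ± 0.871 CPM to 17.3 ± 1.24 CPM (SD, n = 3 each), a log2 fold change of −0.36 (edgeR gave an adjusted p of 0.000338). NEDD4L, a ubiquitin ligase, had a log2 fold change of −0.35. The metal-responsive factor MTF1 and the hypoxia factor EPAS1 were higher, with log2 fold changes of 0.31 and 0.17. BACH1 had a log2 fold change of −0.01, NFE2L2 (NRF2) of 0.04 and KEAP1, its inhibitor, of 0.05, and none of the 3 passed the test, the lowest adjusted p being 0.31 for KEAP1 in edgeR.

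Heme genes changed in both directions, with 4 of 14 higher, 4 lower and 6 that did not pass. BLVRB, a biliverdin reductase that acts after heme oxygenase, rose the most, from 109.8 ± 1.71 CPM to 140.3 ± 4.90 CPM (SD, n = 3 each), a log2 fold change of 0.35 (edgeR gave an adjusted p of 8.37e-07). The other higher genes were ALAD, UROS and HMOX2. ALAD and UROS, enzymes of heme synthesis, had log2 fold changes of 0.27 and 0.23. Lower genes included UROD, a later enzyme of the same pathway, and the mitochondrial transporters ABCB10 and TMEM14C, each with a log2 fold change of −0.17. In FPKM, HMOX2 and UROD overlapped between groups, while ABCB10 and TMEM14C were lower in every si_GRB2 library.

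Of 29 tested genes of mitochondrial iron and iron-sulfur clusters, 5 were higher, 1 was lower and 23 did not pass. ISCA1, a late-acting assembly factor, had a log2 fold change of 0.32 (adjusted p = 1.17e-05) and its partner ISCA2 of 0.26 (adjusted p = 0.00162), both in edgeR. Higher genes also included HSPA9 and CIAO3, and the cytosolic scaffold NUBP2 was lower with a log2 fold change of −0.20.

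Targets of NRF2 were also split, with 3 of 12 higher, 4 lower and 5 that did not pass. ME1, malic enzyme, had a log2 fold change of 0.52, SRXN1 of 0.23 and GCLM of 0.17. AKR1B10 fell from 2.54 ± 0.142 CPM to 1.22 ± 0.252 CPM (SD, n = 3 each) on 304 reads over all libraries, a log2 fold change of −1.05 with a standard error of 0.20, and was the one DEG of this list. TXNRD1 had a log2 fold change of −0.24, PGD of −0.14 and NQO1 of −0.12. In FPKM, PGD and NQO1 overlapped between groups, while TXNRD1 was lower in every si_GRB2 library. In the ferroptosis list, 2 of 12 tested genes were higher, LPCAT3 (0.17) and POR (0.08), 1 was lower, DHODH (−0.30), and 9 did not pass, all values being log2 fold changes. Among those 9 was GPX4, the enzyme that reduces lipid peroxides, at 290.3 ± 7.83 CPM in si_NC and 290.0 ± 8.84 CPM in si_GRB2 (SD, n = 3 each).

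**Figure D5:**
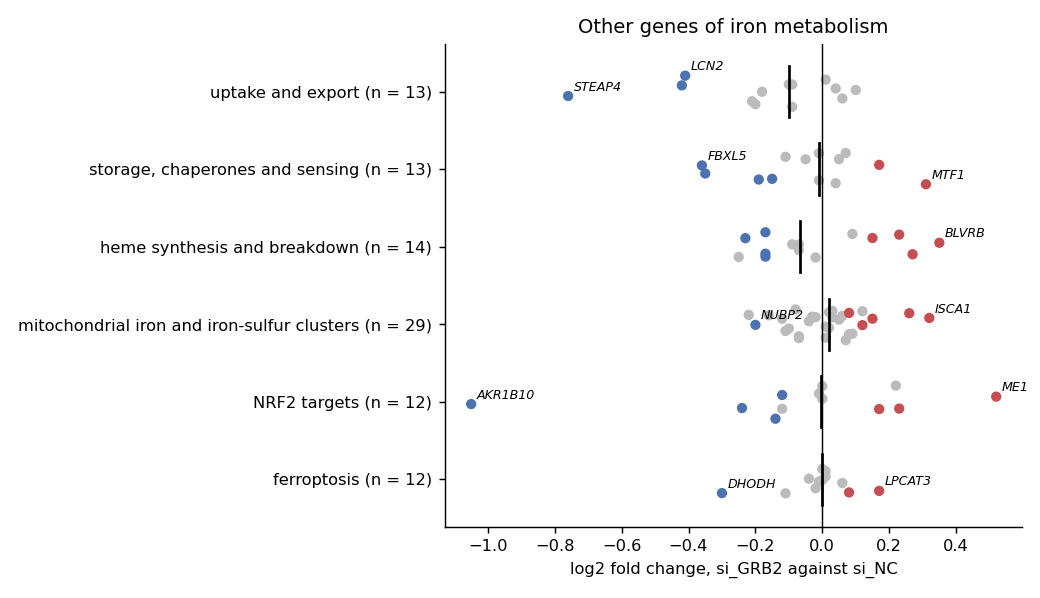
Log2 fold change of si_GRB2 against si_NC (x axis) for the tested genes of 6 lists of iron metabolism, each point a gene, red where higher and blue where lower at an adjusted p under 0.05, and grey otherwise; black lines mark the median of each list and points are spread vertically at random. The medians lie between −0.10 and 0.019, and the ends are STEAP4 at −0.76, AKR1B10 at −1.05 and ME1 at 0.52.

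Among the 5 genes whose pattern over the 6 libraries was most like that of SLC40A1, by Pearson's r of log2 CPM among 10623 other genes with a mean of at least 5 CPM, were INSIG1 (r = 0.999), RHOB (r = 0.998), ULK1 (r = 0.998) and SLC41A3 (r = 0.998). Their log2 fold changes were 0.48, 0.35, 0.57 and 1.0. These 6 points share the 2 groups, so any gene that differs cleanly between them scores high, and 13.5% of the genes compared had r of at least 0.9. Among the iron handling genes, r with SLC40A1 was 0.981 for TFRC, 0.885 for FTH1, 0.861 for SLC11A2, 0.822 for SLC39A14, 0.614 for NCOA4, 0.537 for FTL, 0.151 for IREB2 and −0.954 for HMOX1. ACO1 fell below the minimum of 5 CPM.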

How the data were processed

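Per the paper's methods, the authors trimmed reads with FASTX-Toolkit, aligned them to GRCh38 with HISAT2 and counted uniquely mapped reads. The authors deposited raw gene counts and, in a second table, FPKM. The counting tool and annotation release are not given in the sources used here. Of the gene identifiers, 99.7% were in GENCODE 44, from which positions and transcripts were taken.

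Libraries were scaled by TMM in edgeR 4.0.16 under R 4.3.3, low genes were removed with filterByExpr (15801 of 30327 stayed), and the quasi-likelihood test compared si_GRB2 with si_NC without covariates, with Benjamini-Hochberg adjustment over all genes kept. Each standard error (SE) is the size of the log2 fold change divided by the root of its F statistic. CPM are TMM-normalised. Alternatives were DESeq2 1.42.0, limma 3.58.1 on log2(FPKM + 1) and log2(FPKM + 0.1), other scalings and filters, a replicate block and each library left out. The members, lists and ratios were chosen with earlier results of these data known. Named genes are the members, GRB2, DEGs of the lists, the largest and smallest called log2 fold change in each list, and the 5 genes most like SLC40A1. Some genes that this rule names are not reported here. ERBB2 and others were named as markers, BEST1 for its overlap, and STEAP3, PCBP1, PCBP2, BACH1, NFE2L2, KEAP1, GPX4 and the remaining list genes after their values were seen. Python 3.11.15 and matplotlib 3.10.9 made the figures.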

Additional observations from a re-analysis of the deposited data

How the results depend on the processing

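Of 159 refits of the iron handling genes, 158 kept the sign, a count that includes the 16 refits of SLC40A1. The exception was IREB2, whose log2 fold change was −0.01 without si_NC replicate 3 and ran from −0.01 to 0.10 over the fits that left out 1 library. TFRC (0.49 to 0.57) kept its direction and its call under all 16 alternatives. SLC40A1 ran from 0.68 to 0.78, which is a description only, because its rise in these same libraries chose the set. Of the 9 genes other than SLC40A1, 5 passed in edgeR as reported. With limma on log2(FPKM + 1), log2(FPKM + 0.1), and log2(FPKM + 1) with a mean of at least 1, the numbers were 1, 1 and 3, and over all genes 1400, 1534 and 2689 passed instead of 4838. Of the wider lists, 12 and 12 passed with limma on log2(FPKM + 1) and on log2(FPKM + 0.1) instead of 33, and 22 of the 77 tested with the minimum on FPKM. Under these fits without a minimum, FTH1 had adjusted p-values of 0.137 and 0.169 and SLC39A14 of 0.159 and 0.15 (limma). Those of SLC11A2 were 0.124 and 0.12, and 0.06 in the limma fit with the minimum. The cause was not tested. FTL and NCOA4 passed with scaling by total reads alone.

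Leaving out 1 library at a time gave 4 to 5 of the 9 genes, 29 to 34 of the wider lists and 3774 to 4420 of all genes. Deviations from the group mean correlated at 0.232, −0.095 and 0.08 between same-numbered libraries of the groups. For unlike numbers the correlations ran from −0.282 to 0.228, so the numbers marked no clear pairing. With the replicate block, 5 of the 9, 32 of the wider lists and 4807 of all genes passed. Not every library correlated best with its own number. Genes with few reads, such as ACO1 and AKR1B10, are limited by depth.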

Other observations

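The deposited FPKM and the counts do not share 1 total per library. Over 9009 genes with at least 200 reads and 1 FPKM in every library, the scale of the FPKM against reads on genes scaled to their total ran from 0.967 of its mean in si_NC replicate 1 to 1.04 in si_NC replicate 3, and from 0.969 to 1.02 in the si_GRB2 libraries. On the FPKM, SLC40A1 had 5.70, 5.32 and 6.20 in si_NC and 9.62, 9.86 and 9.89 in si_GRB2, and TFRC had 38.0, 38.0 and 38.6 in si_NC and 53.4, 58.0 and 58.0 in si_GRB2.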
